A study of Mus musculus with 12 samples.

Results

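The comparison set all 6 brain libraries from mice given lipopolysaccharide (LPS) against all 6 libraries from mice given saline, with the adolescent treatment as a covariate. It used 12 of the 12 libraries of the study and every gene in its count tables, so it measured the part of the LPS response that was averaged over both adolescent treatments. The libraries formed 4 groups of 3, all from brain tissue of male C57BL6 mice. The 3 THC_LPS libraries came from mice injected with THC (tetrahydrocannabinol, the cannabinoid that makes cannabis intoxicating) at 5 mg/kg each day from postnatal day 30 to 44 and, at day 70, with LPS at 0.33 mg/kg. The 3 Veh_LPS libraries came from mice injected with vehicle (8% Tween-80 in saline) over the same days, and with the same LPS dose. The 3 THC_Ctrl and the 3 Veh_Ctrl libraries came from mice with the same adolescent THC or vehicle, and saline at day 70. All injections were intraperitoneal, and brains were taken 24 h after the last injection. The brain region is not given in the sources used here, and the labels do not state whether each library came from its own mouse. The p-values therefore reflect only how far these samples spread, part of which may be technical.

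LPS is a cell wall component of Gram-negative bacteria. Given outside the brain, it is sensed by Toll-like receptor 4 on immune and vascular cells, which release cytokines and interferons into the blood. Brain endothelium, microglia and astrocytes respond to these signals, and interferons act through STAT and IRF transcription factors that bind a short DNA element, the interferon-stimulated response element, near their target genes.

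Of 25556 genes, 17208 passed the expression filter and were tested. Genes called higher in LPS numbered 203 (1.18% of those tested) and genes called lower numbered 23 (0.134%), by edgeR's quasi-likelihood test at an adjusted p under 0.05. The rises were larger than the falls: their median log2 fold change was 1.08 (range 0.43 to 6.79) and 111 of them exceeded 1 log2 unit, while the falls had a median of -0.45 (range -1.54 to -0.38) and 1 exceeded that size. The rises were led by the secreted acute-phase protein Lcn2, the interferon regulator Irf7, the guanylate-binding protein Gbp7 and the macrophage receptor Siglec1, and the falls held 4 genes of cholesterol synthesis and its control, the neuropeptide gene Hcrt and the Notch ligand Dll4. In 141 of the 203 rises all 6 LPS libraries lay above all 6 Ctrl libraries, a separation that 1.14% of tested genes had, and in 13 of the 23 falls all 6 lay below, which 0.808% of tested genes had. The median over all tested genes was -0.02, with 7888 of the 17208 positive and 9318 negative. Of the called genes, 222 were protein coding. At an unadjusted p under 0.05 there were 1516 rises (8.81%) and 1565 falls (9.09%).

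The counts moved when single libraries were left out. Rises numbered 470 without THC_LPS replicate 3, 550 and 129 without replicates 1 and 3 of Veh_LPS, 132 without Veh_Ctrl replicate 2, and between 136 and 222 without any other library. Falls numbered between 2, when Veh_LPS replicate 2 was left out, and 263, when Veh_LPS replicate 1 was left out. In libraries weighted for quality (limma voom), 1302 genes were called higher and 1659 lower, so that 44% of calls were rises against 89.8% in edgeR. With each library's trend on GC content removed, 536 were called higher and 195 lower.

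**Figure D1:**
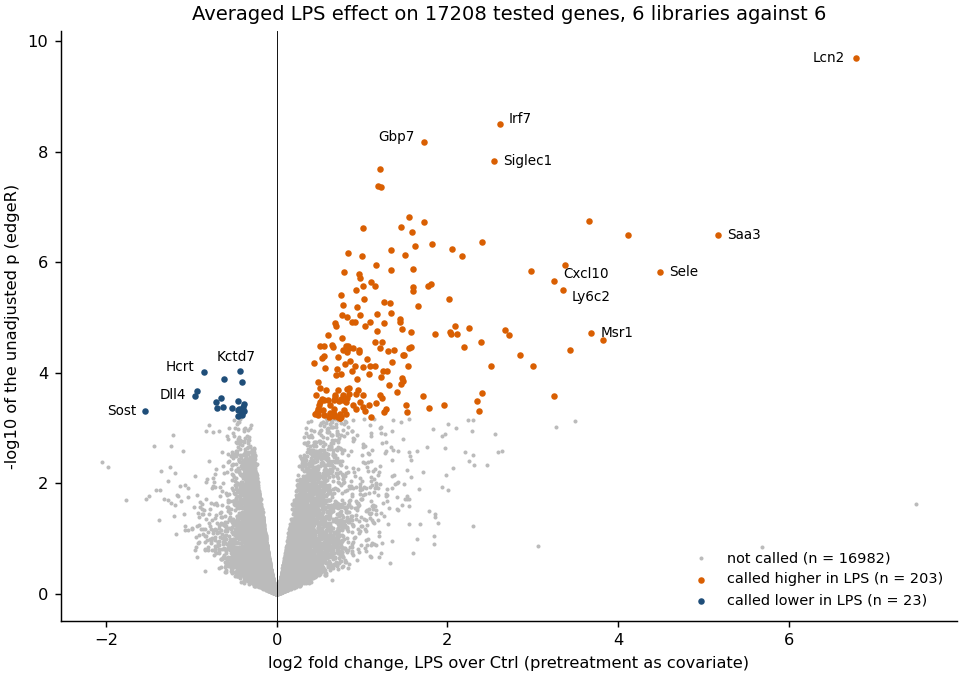
Each point is a tested gene, with its log2 fold change of LPS over Ctrl on the x axis and the -log10 of its unadjusted p (edgeR, pretreatment as covariate) on the y axis. The 203 called rises (orange) reached 6.79 log2 units at Lcn2, whereas the 23 called falls (blue) lay between -1.54 (Sost) and -0.38.

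Libraries held 16.7 to 44.7 M gene reads each. Markers of neurons, astrocytes and oligodendrocytes were abundant in all 12 libraries, as the tissue label says. THC_LPS replicate 3 stood apart by a Spearman correlation of -0.749 between gene GC content and its deviation from each gene's median over all 12 libraries. The other libraries lay between -0.11 and 0.276. THC_LPS replicate 3 also had 9.11% mitochondrially encoded reads, where the others had 4.11 to 7.11%. Veh_LPS replicate 2 stood apart by pituitary hormone reads, with Gh at 3640 CPM (reads scaled to library size, after TMM), where the others had at most 10.6. Without both libraries 229 genes were called higher and 17 lower, among them 162 of the 203 rises and 10 of the 23 falls.

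Interferon-induced genes made up the largest group of rises among the gene lists that were read. Promoters of 5 of them are shown because they carry the letters of the interferon-stimulated response element. RefSeq windows (GRCm38.p6) from 250 bases before to 50 after the annotated start were at hand for 12698 of the tested genes. The letters GAAANNGAA, on either strand, occurred in 8.7% of these windows. They occurred in 53 of the 156 called rises with a window (34.0%), in 13 of 22 interferon effector genes (59.1%), in 9 of 10 interferon-induced GTPases (90.0%) and in 0 of the 17 called falls with a window. The NF-kB letters GGANTTTCC, also on either strand, occurred in 1.63% of all windows and in 5.13% of those of called rises. A match of letters is a description and does not show that a factor binds there. Each stretch below is 150 bases, written 5′ to 3′ on the gene's strand, with letters of a searched motif in capitals. Those of Isg15 (chr4:156200819-156200968, minus strand), Ifit1 (chr19:34640739-34640888, plus), Rsad2 (chr12:26456453-26456602, minus) and Gbp2 (chr3:142620513-142620662, plus) end at the base before the start, and that of Cxcl10 (chr5:92348990-92349139, minus) starts 250 bases before it.
Isg15: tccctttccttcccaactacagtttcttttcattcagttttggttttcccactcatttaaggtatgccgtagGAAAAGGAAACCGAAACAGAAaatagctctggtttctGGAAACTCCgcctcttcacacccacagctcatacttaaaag
Ifit1: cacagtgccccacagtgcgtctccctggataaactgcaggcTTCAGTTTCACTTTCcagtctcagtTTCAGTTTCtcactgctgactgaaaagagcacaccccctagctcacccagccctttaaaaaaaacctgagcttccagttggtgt
Rsad2: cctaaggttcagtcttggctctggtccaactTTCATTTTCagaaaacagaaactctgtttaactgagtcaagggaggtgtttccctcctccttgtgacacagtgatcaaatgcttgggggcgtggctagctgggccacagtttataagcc
Gbp2: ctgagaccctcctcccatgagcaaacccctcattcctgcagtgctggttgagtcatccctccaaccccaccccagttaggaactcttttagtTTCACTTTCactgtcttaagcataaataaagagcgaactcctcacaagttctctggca
Cxcl10: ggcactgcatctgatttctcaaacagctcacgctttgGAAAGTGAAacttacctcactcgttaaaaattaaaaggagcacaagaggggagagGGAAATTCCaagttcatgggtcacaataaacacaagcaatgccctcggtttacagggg
In Isg15 and Cxcl10 the capitals also mark an NF-kB match, GGAAACTCC in Isg15 and GGAAATTCC in Cxcl10, and in Isg15 the interferon element matches overlap in a single run. Ifit1, Rsad2 and Gbp2 hold the element on the opposite strand, as TTC followed after a gap by TTTC.

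Irf7, the transcription factor that amplifies type I interferon signalling, lay on chromosome 7 and had the smallest p after Lcn2. Its level was 7.73 CPM in the lowest, 17.2 in the median and 19.6 in the highest LPS library, against 1.77, 2.49 and 3.04 CPM in the lowest, median and highest Ctrl library. Every LPS library was thus above every Ctrl library, and the log2 fold change was 2.61 with an SE of 0.23 (edgeR adjusted p = 2.7e-05). Of 12 tested IRF and STAT factors, 2 rose, Irf7 among them, and the other 10 did not pass the test, with a list median of 0.31.

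Interferon effectors, the proteins that block viral entry, translation and replication, rose in 23 of 30 tested members and fell in 0. All 30 had a positive log2 fold change, with a median of 1.45. Ifit1, which binds foreign RNA caps, had 2.31, 5.68 and 7.23 CPM in the lowest, median and highest LPS library, against 0.497, 0.943 and 1.26 CPM in Ctrl. The groups did not overlap, and the log2 fold change was 2.41 (SE 0.30, adjusted p = 4.7e-04 by edgeR). Rsad2, the radical-forming antiviral enzyme viperin, had 3.01 to 6.12 CPM in LPS and 0.828 to 1.68 CPM in Ctrl, a log2 fold change of 1.82. Oasl2, a relative of the oligoadenylate synthetases that sense double-stranded RNA, had 8.16 to 16.9 CPM in LPS and 2.47 to 5.14 CPM in Ctrl, a log2 fold change of 1.72. Ifitm3, which blocks fusion of viruses with the cell membrane, had 12.6, 27.2 and 36.4 CPM in LPS and 6.59, 9.0 and 10.3 CPM in Ctrl (log2 fold change 1.59). In each of these genes the 2 sets of libraries were apart. Isg15, a ubiquitin-like protein that is attached to other proteins, averaged 4.32 ± 1.44 CPM in LPS and 1.40 ± 0.291 CPM in Ctrl (SD, n = 6 each) and rose by 1.59. Oasl1, at 0.489 to 2.11 CPM in LPS and 0 to 0.457 CPM in Ctrl, was the list's largest rise at 2.67. The members that did not pass the test were Ifit2, Isg20, Oas3, Mx1, Ifitm2, Herc6 and Cmpk2.

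The interferon-induced GTPases, which coat and disrupt membranes around intracellular microbes, rose in 12 of 14 tested members, with a median log2 fold change of 1.22. Gbp7 had 3.65, 4.75 and 5.28 CPM in the lowest, median and highest LPS library, against 1.11, 1.43 and 1.62 CPM in Ctrl. Its spread within each set was small beside the distance between them, and the log2 fold change was 1.73 (SE 0.16, adjusted p = 3.8e-05 by edgeR). Gbp2 rose by 1.5 and Gbp3 by 1.34 log2 units, both without overlap between the sets. Igtp and Tgtp1 did not pass. Counted by symbol and not by list, 7 of 8 tested guanylate-binding genes rose, and the 8 ranged from -0.12 to 1.73. Reads of the Gbp, Ifit, H2-Q and Ly6 families can be split or dropped between near-identical copies, since the handling of multi-mapped reads is not given in the sources used here.

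Sensors of foreign nucleic acid rose in 5 of 13 tested members (median 0.58). Zbp1, which detects Z-form nucleic acid and can start necroptosis, had 0.88, 1.65 and 4.19 CPM in LPS and 0.207, 0.233 and 0.364 CPM in Ctrl, a log2 fold change of 2.98 (SE 0.40). Ifi204, a nuclear DNA sensor, had 0.83 to 2.78 CPM in LPS and 0.0385 to 0.415 CPM in Ctrl, a log2 fold change of 3.37. The cytosolic RNA helicases Ddx58, known as RIG-I, and Ifih1, known as MDA5, rose by 0.97 and 0.74 log2 units. None of the endosomal receptors Tlr3, Tlr7, Tlr9 and Tlr13 passed the test.

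**Figure D2:**
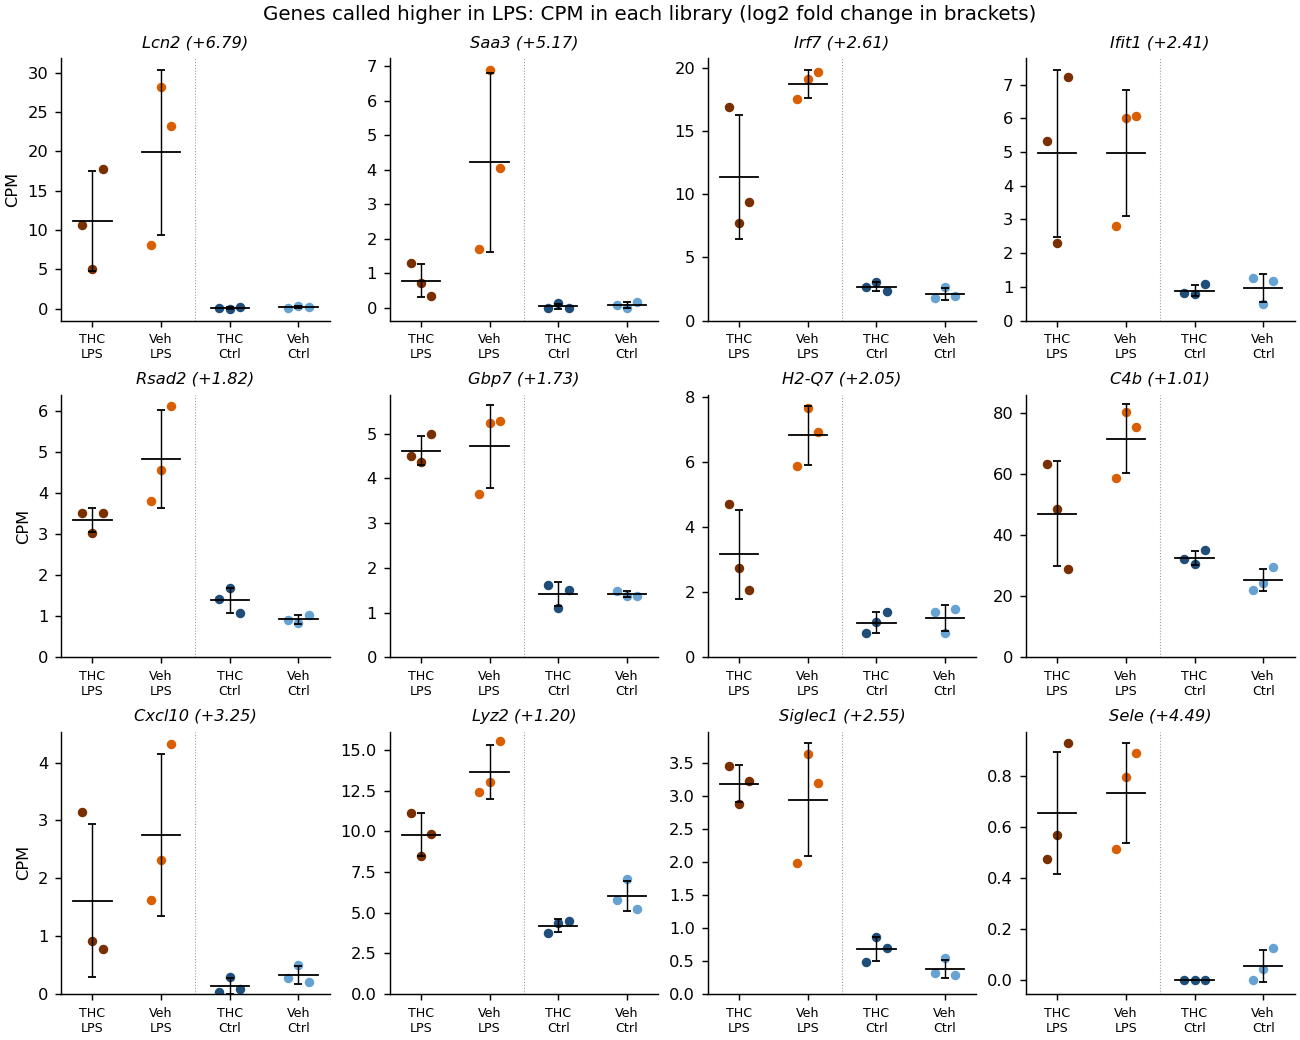
CPM in each library for 12 genes called higher in LPS, with the LPS groups left of the Ctrl groups, a bar for the mean of 3 libraries and its SD, and the log2 fold change of the averaged effect in brackets. LPS and Ctrl points do not overlap in 11 of the panels, and in C4b the lowest LPS library, a THC_LPS library at 29 CPM, lies below the highest Ctrl library at 35.2 CPM. Named genes were chosen in part for lack of overlap or small p, so this share follows in part from the choice. Among all 203 called rises, 141 had no overlap.

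Acute-phase genes, whose secreted products rise in systemic inflammation, held the largest rises. Lcn2, an iron-siderophore binding protein, had 10.6, 4.98 and 17.7 CPM in the 3 THC_LPS libraries and 8.13, 28.2 and 23.2 CPM in the 3 Veh_LPS libraries, against 0 to 0.29 CPM in Ctrl, where the highest library had 7 reads. All 6 LPS libraries were thus far above Ctrl, and the log2 fold change was 6.79 (SE 0.49, adjusted p = 3.4e-06 by edgeR). Saa3, a serum amyloid A protein, had 0.342, 1.5 and 6.90 CPM in the lowest, median and highest LPS library and at most 0.166 CPM in Ctrl. Its log2 fold change was 5.17 (SE 0.63, adjusted p = 3.7e-04), and the 3 THC_LPS libraries were the lowest of the 6, at 0.342 to 1.31 CPM. Cp, the copper-binding ferroxidase ceruloplasmin, rose by 0.92 log2 units. Of 8 tested members these 3 rose, and Socs3 and Cebpd, which act downstream of interleukin-6 signalling, did not pass, with log2 fold changes of 0.26 and 0.15.

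Cytokine transcripts were rare at this time. Cxcl10, a chemokine that attracts T cells, had 0.782, 1.97 and 4.32 CPM in LPS and 0.0404, 0.241 and 0.497 CPM in Ctrl, a log2 fold change of 3.25 without overlap (SE 0.46, adjusted p = 0.0011 by edgeR). Ccl12, a monocyte-attracting chemokine, had 0.238 to 3.39 CPM in LPS and 0.0821 to 0.456 CPM in Ctrl, so that the sets overlapped, and its log2 fold change was 2.85. Il1a, which encodes interleukin-1 alpha, rose by 1.55 log2 units, with 0.872 to 1.27 CPM in LPS and 0.249 to 0.577 CPM in Ctrl. These were 3 of 14 tested members. Il1b, at 0.175 to 0.608 CPM in LPS and 0 to 0.269 CPM in Ctrl, did not pass (adjusted p = 0.19). Tnf, Il6 and Ccl2 had too few reads to be tested: summed over 6 libraries, Tnf had 18 reads in LPS and 0 in Ctrl, Il6 had 4 in LPS and 0 in Ctrl, and Ccl2 had 83 in LPS and 7 in Ctrl.

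The receptor complex for LPS and its signalling chain showed no called member. Of 23 tested genes of Toll-like receptor and NF-kB signalling 0 passed in either direction, and their median log2 fold change was 0.16. Tlr4, the LPS receptor itself, had 1.03 to 3.03 CPM in LPS and 0.745 to 1.56 CPM in Ctrl (log2 fold change 0.69, adjusted p = 0.20). Bcl3, a nuclear partner of NF-kB, was the nearest to the threshold, with 0.733 to 1.43 CPM in LPS, above the 0.205 to 0.688 CPM in Ctrl (log2 fold change 1.27, adjusted p = 0.070 by edgeR).

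Antigen presentation through MHC class I, which shows peptides from inside the cell to T cells, rose in 5 of 11 tested members, with a median of 0.71 and positive values in all 11. B2m, the invariant light chain, had 83.7, 126 and 142 CPM in LPS and 71.7, 73.9 and 89.3 CPM in Ctrl. Its sets overlapped slightly, and the log2 fold change was 0.64 (SE 0.11, adjusted p = 0.0064 by edgeR). H2-Q7, a non-classical heavy chain, had 2.05, 5.28 and 7.66 CPM in LPS and 0.728, 1.22 and 1.5 CPM in Ctrl, with no overlap and a log2 fold change of 2.05. H2-K1, a classical heavy chain, rose by 0.94, but was not called (adjusted p up to 0.0749) once THC_LPS replicate 1, Veh_LPS replicate 3 or either of Veh_Ctrl replicates 1 and 2 was left out. The regulator Nlrc5, which switches on class I genes, rose by 1.58, and the peptide transporter Tap1 rose by 0.97, and 2 of 11 tested genes of peptide loading rose (median 0.25). Tap1 was called in 5 of the 12 fits that left out a library, with adjusted p up to 0.108. MHC class II genes, used by professional antigen-presenting cells, showed 0 calls among 8, with a median of -0.13. Their median was -0.37 within the THC libraries and 0.44 within the vehicle libraries.

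Complement genes, which tag targets for engulfment, rose in 7 of 13 tested members (median 0.76). C1qb, a chain of the initiator C1q, had 45.1, 61.8 and 67.9 CPM in LPS and 27.6, 32.1 and 37.3 CPM in Ctrl, with no overlap and a log2 fold change of 0.83 (SE 0.11, adjusted p = 5.4e-04 by edgeR). C4b, the next component of the cascade, had 29.0, 61.1 and 80.5 CPM in LPS and 22.2, 30.0 and 35.2 CPM in Ctrl. Its log2 fold change was 1.01, and without Veh_Ctrl replicate 2 the adjusted p was 0.0521. C5ar1, the receptor for the fragment C5a on myeloid cells, rose by 1.86, with 1.22 to 3.34 CPM in LPS and 0.202 to 0.885 CPM in Ctrl.

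Genes of phagocytes rose in part. Fc receptors, which bind antibody-coated particles, and their signalling partners rose in 6 of 12 tested members (median 0.67). Fcgr1, the high-affinity receptor for immunoglobulin G, had 3.54, 6.36 and 7.90 CPM in LPS and 2.20, 2.88 and 3.07 CPM in Ctrl, with no overlap and a log2 fold change of 1.18. Fcer1g, the signalling chain shared by several Fc receptors, rose by 1.00 with no overlap. The oxidase that makes superoxide in phagocytes rose in 3 of 6 subunits or partners: its catalytic chain Cybb had 1.66 to 3.08 CPM in LPS and 0.566 to 0.745 CPM in Ctrl (log2 fold change 1.60), Ncf1 rose by 0.86 and Rac2 by 1.23. Lyz2, the lysozyme of myeloid cells, had 8.47, 11.8 and 15.5 CPM in LPS and 3.72, 4.85 and 7.04 CPM in Ctrl. It rose by 1.20 log2 units (SE 0.12, adjusted p = 7.0e-05 by edgeR) with no overlap, and was the only called gene of 17 on the list of activated microglia. The complement receptor chain Itgam, with 30.1 to 37 CPM in LPS and 16.2 to 25 CPM in Ctrl, was among 3 of 15 leukocyte and integrin genes that rose.

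Homeostatic microglial genes, which mark the resting state of these brain macrophages, mostly did not pass: 2 of 20 rose and 0 fell, with a median of 0.13. P2ry12, a purine receptor of resting microglia, had 12.3, 17.3 and 31.1 CPM in LPS and 19.3, 21.3 and 25.7 CPM in Ctrl, a log2 fold change of -0.25 (adjusted p = 0.45 by edgeR). Tmem119 had 14.5, 24.2 and 30.2 CPM in LPS and 17.1, 21.0 and 23.3 CPM in Ctrl, a log2 fold change of 0.15. In both, the LPS libraries spread to either side of the Ctrl libraries. Aif1, the calcium-binding protein Iba1 used to stain microglia, had 2.18, 4.40 and 5.52 CPM in LPS and 1.92, 2.41 and 3.77 CPM in Ctrl (log2 fold change 0.77, adjusted p = 0.10). Cx3cr1, the fractalkine receptor, had 29.8 to 38.7 CPM in LPS and 22.7 to 30.7 CPM in Ctrl (log2 fold change 0.37, adjusted p = 0.073). The members that rose were Olfml3, a secreted matrix protein, at 0.70, and Fcrls, an Fc receptor-like protein, at 0.60, both with no overlap. In bulk tissue, more cells of a type and more RNA per cell cannot be told apart. The summed level of the 20 markers was 819 to 959 CPM in LPS and 664 to 888 CPM in Ctrl.

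Siglec1, a sialic acid receptor of macrophages at the brain's borders, was the only called gene of 12 markers of those cells, the list having a median of 0.37. It had 1.98, 3.21 and 3.64 CPM in LPS and 0.291, 0.512 and 0.862 CPM in Ctrl, a log2 fold change of 2.55 (SE 0.25, adjusted p = 6.3e-05 by edgeR). The defining marker Mrc1 had 3.49 to 7.77 CPM in LPS and 3.11 to 4.33 CPM in Ctrl (log2 fold change 0.62, adjusted p = 0.12). Among markers of blood leukocytes, 9 of 15 had enough reads, and Ly6c2, Plac8 and Chil3 rose. Ly6c2, of inflammatory monocytes, had 0.48 to 1.13 CPM in LPS and 0 to 0.202 CPM in Ctrl, a log2 fold change of 3.35 from 124 reads in LPS and 11 in Ctrl. Plac8 rose by 3.66, with 0.611 to 1.66 CPM in LPS and 0.0404 to 0.115 CPM in Ctrl. The call of Chil3 was lost in 7 of the 12 fits that left out a library. The neutrophil genes S100a8 and S100a9 had log2 fold changes of 1.55 and 1.57 and did not pass, the monocyte receptor Ccr2 had 0.61, and the T cell gene Cd3e had 10 reads in LPS and 18 in Ctrl. The summed level of the 15 markers was 4.63 to 9.31 CPM in LPS and 2.32 to 4.45 CPM in Ctrl, so the sets did not overlap, and its part in the rises of the phagocyte genes was not tested.

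Genes of activated and resting endothelium rose in part. Sele, the endothelial selectin that slows passing leukocytes, had 0.475, 0.682 and 0.929 CPM in LPS and 0 to 0.125 CPM in Ctrl, where 4 libraries had 0 reads. Its log2 fold change was 4.49 (SE 0.61, adjusted p = 8.4e-04 by edgeR), and 5.77 without Veh_Ctrl replicate 3, which held 3 of the 4 Ctrl reads. Vwf, the clotting factor stored in endothelium, had 42.4, 50.8 and 58.2 CPM in LPS and 19.2, 24.7 and 31.5 CPM in Ctrl. It rose by 1.01 log2 units with no overlap. Lrg1, a secreted glycoprotein that acts on vessel growth, rose by 1.60, and the adhesion molecule Icam1 by 1.46, although the call of Icam1 held in 5 of the 12 fits that left out a library (adjusted p up to 0.0814). Together 5 of 14 tested activation genes rose, and Vcam1, Selp and Ptgs2 were among those that did not pass. Of 25 genes that define brain endothelium 4 rose and 1 fell. Ly6a, a membrane-anchored protein of endothelium that is also induced by interferon, had 24.4, 34.0 and 50.2 CPM in LPS and 10.1, 12 and 16.9 CPM in Ctrl (log2 fold change 1.55). Ly6c1 rose by 1.01, the matrix protein Fn1 by 0.69 and the junction protein Pecam1 by 0.56. The tight junction gene Cldn5 was at 23.6 to 61.5 CPM in LPS and 33.1 to 50 CPM in Ctrl and did not pass.

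Reactive astrocyte genes rose in 8 of 23 tested members (median 0.53), and Lcn2, Cxcl10, Cp and Gbp2 also stand on other lists. Serpina3n, a secreted protease inhibitor, had 19.0, 28.5 and 40.2 CPM in LPS and 12.4, 15.7 and 17.0 CPM in Ctrl, with no overlap and a log2 fold change of 0.89. Osmr, the receptor for oncostatin M, rose by 0.84. Gfap, the filament protein most used to see reactive astrocytes, had 197, 308 and 364 CPM in LPS and 189, 206 and 238 CPM in Ctrl, a log2 fold change of 0.46 that did not pass (adjusted p = 0.085 by edgeR). None of 15 genes of astrocyte identity, 20 of neurons, 9 of oligodendrocyte precursors or 20 of pericytes, fibroblasts and vessel matrix passed, with medians of -0.06, -0.04, -0.03 and 0.07.

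**Figure D3:**
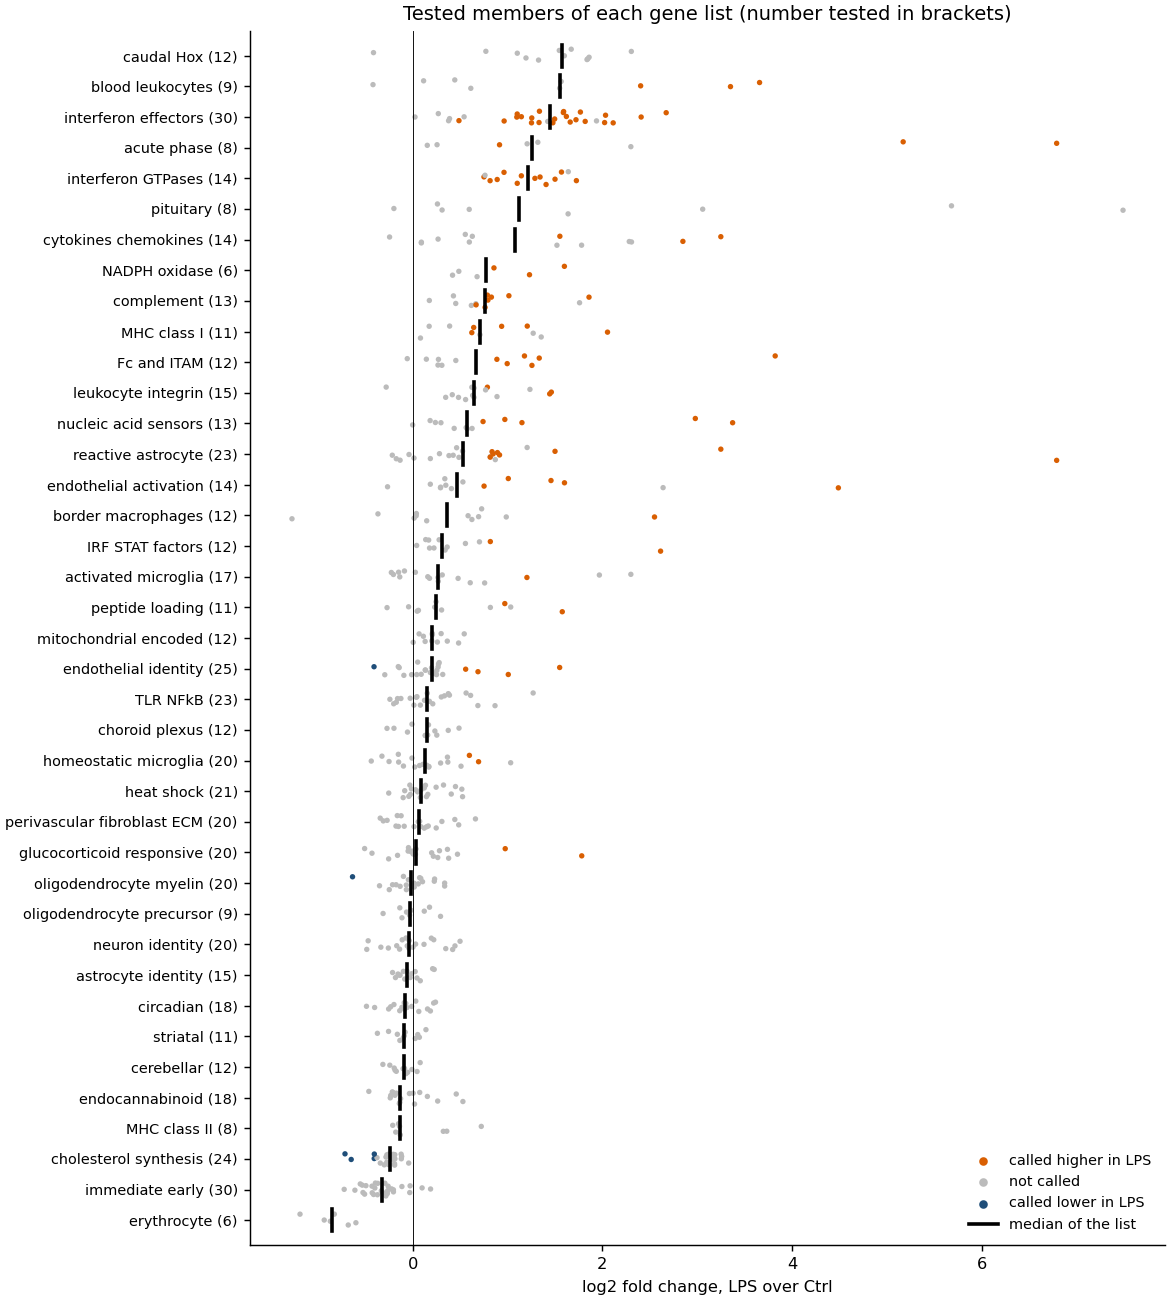
Each point is a tested member of a gene list, at its log2 fold change of LPS over Ctrl, in orange where called higher, blue where called lower and grey where not called, with a black bar at the list's median. Interferon effectors (median 1.45) and interferon GTPases (1.22) hold mostly called members, whereas the Hox and pituitary lists have medians above 1 with 0 calls.

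Falls were small and spread over several functions. The largest group among the lists read was cholesterol synthesis and its control, in which 4 of 24 tested genes fell, 0 rose and all 24 had a negative log2 fold change, with a median of -0.24. Over all 17208 tested genes, called falls made up 0.134%, and 9318 genes had a negative log2 fold change. Mvd, which makes isopentenyl diphosphate, had 8.94, 15.2 and 18.6 CPM in LPS and 19.9, 23.8 and 26.5 CPM in Ctrl, a log2 fold change of -0.65 (SE 0.14, adjusted p = 0.030 by edgeR). Insig1, which holds the sterol-sensing complex in the endoplasmic reticulum, had 58.1, 71.3 and 82.2 CPM in LPS and 84.4, 91.0 and 107 CPM in Ctrl, a log2 fold change of -0.40. In both genes all LPS libraries were below all Ctrl libraries. The regulator Srebf2 was at -0.25 and did not pass (adjusted p = 0.26 by edgeR). Of the 12 fits that left out a library, Mvd was called in 5 and Insig1 in 2, with adjusted p up to 0.0877 for Mvd and 0.140 for Insig1. The list had 0 calls without Veh_Ctrl replicate 1 or 2, THC_Ctrl replicate 2, or Veh_LPS replicate 2 or 3, and 7 without Veh_LPS replicate 1.

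The promoter of Insig1 (chr5:28071262-28071411, plus strand, GRCm38.p6, RefSeq), up to the base before its start, is shown because it holds the E-box CACGTG, in capitals, which 10.9% of all windows held, 3 of the 17 called falls with a window and 4 of 16 genes of the cholesterol list.
Insig1: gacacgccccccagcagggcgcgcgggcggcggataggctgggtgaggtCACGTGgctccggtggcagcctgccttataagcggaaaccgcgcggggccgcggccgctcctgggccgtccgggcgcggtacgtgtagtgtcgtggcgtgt
The letters TCACNCCAC of a sterol regulatory element, searched after the calls were known, occurred in 1.39% of all windows, in 1 of the 16 cholesterol genes and in 0 of the called falls.

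Hcrt, which encodes the wake-promoting orexin peptides of the lateral hypothalamus, had 2.31, 2.36 and 2.20 CPM in the 3 THC_LPS libraries and 3.57, 2.16 and 3.60 CPM in the 3 Veh_LPS libraries, against 3.44, 4.94 and 6.19 CPM in the lowest, median and highest Ctrl library. The lowest Ctrl library lay just under 2 of the LPS libraries. Its log2 fold change was -0.86 (SE 0.17, adjusted p = 0.013 by edgeR), and the call held in each of the 12 fits that left out a library, but not without both Veh_LPS replicate 2 and THC_LPS replicate 3 (-0.70, adjusted p = 0.053). Pmch, a peptide gene of neighbouring hypothalamic neurons that was looked at after the values were seen, had 1.18 to 5.67 CPM in LPS and 1.25 to 3.53 CPM in Ctrl, a log2 fold change of 0.03 (adjusted p = 0.97), and -0.38 without THC_LPS replicate 3. How much of the hypothalamus each sample held was not tested.

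Among falls of the vessel wall, Dll4, a Notch ligand of endothelial tip cells, had 1.03, 2.51 and 3.17 CPM in LPS and 3.86, 4.15 and 5.01 CPM in Ctrl, a log2 fold change of -0.93 (SE 0.20, adjusted p = 0.025 by edgeR) without overlap. Slc7a5, the large neutral amino acid transporter of the blood-brain barrier, had 54.7, 67.2 and 81.3 CPM in LPS and 83.7, 90.8 and 98.4 CPM in Ctrl, a log2 fold change of -0.41 with the same separation. Apln, a peptide that acts on vessel growth, fell by 0.53, with overlap. Dll4 was called in 5 of the 12 fits that left out a library, and Slc7a5 and Apln in 3 each.

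Kctd7, which encodes a potassium channel tetramerisation domain protein linked to epilepsy in humans, had 15.4, 16.4 and 18.6 CPM in LPS and 20.2, 22.2 and 24.1 CPM in Ctrl, a log2 fold change of -0.43 (SE 0.08, adjusted p = 0.013 by edgeR), and like Hcrt was called in each of the 12 fits that left out a library. Sost, a secreted Wnt inhibitor, was the largest fall at -1.54, but on few reads, with 0.0978 to 0.48 CPM in LPS and 0.616 to 1.12 CPM in Ctrl, and it was called in 3 of those 12 fits (adjusted p up to 0.147). Opalin was the only called member of 20 myelin genes, with 14.7, 17.9 and 30.8 CPM in LPS and 26.6, 30.4 and 32.6 CPM in Ctrl (log2 fold change -0.63), and Veh_LPS replicate 1 was the LPS library that reached the Ctrl range. Opalin was called in 2 of the 12 fits (adjusted p up to 0.115), and was not called without the 2 libraries that stood apart. The median of the myelin list was -0.01. Cplx3, a complexin of presynaptic terminals, fell by 0.70 and Tnnt1, a slow-muscle troponin, by 0.62, both with overlap. Cplx3 was called in 4 of the 12 fits (adjusted p up to 0.112) and Tnnt1 in 9 (up to 0.0607). Other falls included Myo3b (-0.95), Cirbp (-0.46), Ndufaf3 (-0.45), Eif6 (-0.44), Trmt61a (-0.42), Slc5a5 (-0.40), Csrnp2 (-0.39), Dgat2 (-0.39) and Nell1 (-0.38). Their calls were lost in most of the 12 fits: Myo3b and Dgat2 were called in 5, Cirbp, Eif6, Trmt61a and Csrnp2 in 3, and Ndufaf3, Slc5a5 and Nell1 in 2, with adjusted p up to 0.143. The median GC content of the called falls was 55.9%, against 49.8% over all tested genes, and 19 of the 23 were called with the GC trend removed.

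**Figure D4:**
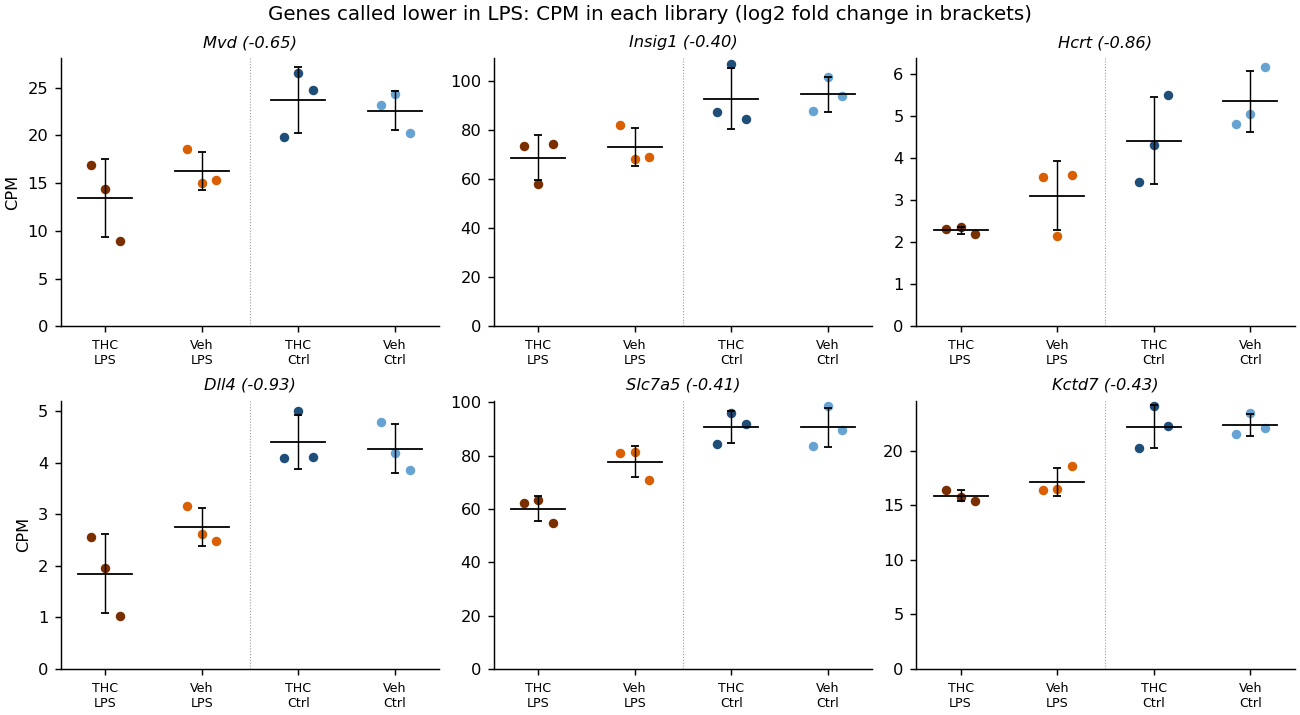
CPM in each library for 6 genes called lower in LPS, with the LPS groups left of the Ctrl groups, a bar for the mean of 3 libraries and its SD, and the log2 fold change of the averaged effect in brackets. In Mvd, Insig1, Dll4, Slc7a5 and Kctd7 every LPS point lies below every Ctrl point, while in Hcrt 1 THC_Ctrl point, at 3.44 CPM, lies below 2 of the Veh_LPS points. Named genes were chosen in part for lack of overlap or small p, and among all 23 called falls 13 had no overlap.

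Other lists held few or no called genes. Of all 17208 tested genes 9318 were negative, and the median over all was -0.02. Immediate early genes, switched on by neuronal activity, had a median of -0.32 with 28 of 30 negative and 0 called. Fos, the best known of them, had 12.6, 28.9 and 43.8 CPM in LPS and 8.28, 47.3 and 95.3 CPM in Ctrl (log2 fold change -0.53, adjusted p = 0.54 by edgeR), so that the Ctrl libraries alone spanned the LPS range. The list's median was -0.70 within the THC libraries and 0.15 within the vehicle libraries. Cyr61, a matricellular gene of the same list, had 3.05 to 10 CPM in LPS and 3.85 to 22.2 CPM in Ctrl. Its log2 fold change was -1.92 within the THC libraries and 0.53 within the vehicle libraries. By group Cyr61 averaged 19.85 CPM in THC_Ctrl, 5.15 in Veh_Ctrl, 5.24 in THC_LPS and 7.17 in Veh_LPS. Glucocorticoid-responsive genes had 2 rises among 20: Sult1a1, a sulfotransferase, at 0.98 with no overlap, and Plin4, a lipid droplet protein, at 1.78, called in 3 of the 12 fits that left out a library. Ddit4, a glucocorticoid-induced inhibitor of growth signalling, was at -0.43 and did not pass (adjusted p = 0.18). The endoplasmic reticulum chaperones Pdia4 and Hspa5, noticed for their values, had every LPS library above every Ctrl library but adjusted p of 0.052 and 0.087, with log2 fold changes of 0.41 and 0.33. Both belong to the heat shock and chaperone list, in which 0 of 21 genes passed, with a median of 0.09. Of 18 endocannabinoid genes 0 passed: Cnr1, the main brain receptor for THC, was at -0.03 and Cnr2, the receptor of immune cells, at -0.46. The 18 circadian genes and the 12 choroid plexus, 11 striatal and 12 cerebellar markers also showed 0 calls, with medians between -0.09 and 0.15.

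Markers that report the composition of a sample moved as well, and their part in the results above was not tested. The summed red blood cell markers were 72.9 to 358 CPM in LPS and 192 to 395 CPM in Ctrl, and 0 of 6 tested members passed, with a median of -0.85. Hox genes, which mark hindbrain and spinal cord, had a median of 1.57 with 0 of 12 called. The sum over 18 list members, tested or not, was 0.44 to 28.1 CPM in LPS and 0 to 19.7 CPM in Ctrl. By group it was 0.44 to 18.6 CPM in THC_LPS, 21.8 to 28.1 CPM in Veh_LPS, 2.15 to 19.7 CPM in THC_Ctrl and 0 to 3.94 CPM in Veh_Ctrl, so that LPS and Ctrl overlapped after THC and did not overlap after vehicle. The 8 tested pituitary markers had a median of 1.12 and 0 were called. The sum over all 12 listed pituitary markers was 4360 CPM in Veh_LPS replicate 2, while the remaining 11 libraries reached no more than 186 CPM. The 12 mitochondrially encoded genes were all positive, with a median of 0.21, and 0 were called. Of all 17208 tested genes 7888 were positive.

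Within each pretreatment the called genes moved the same way. Of the 203 rises, 191 were tested in both pretreatments and were positive in both, and of the 23 falls all 23 were negative in both. The median log2 fold change of the rises was 0.89 within the THC libraries and 1.23 within the vehicle libraries, and that of the falls was -0.57 within the THC and -0.41 within the vehicle libraries. These genes were chosen on the same libraries, so the shared direction follows in part from the choice. At 3 libraries against 3, edgeR called 1 gene higher (Lcn2, 0.00609% of 16430 tested) and 1 lower (Cyr61, 0.00609%) after THC, and 152 higher (0.921% of 16500 tested) and 1 lower (Ednrb, 0.00606%) after vehicle. Those tests found 1 of the 203 averaged rises after THC and 108 after vehicle, and 0 of the 23 falls in either. The 3 THC_LPS libraries held 16.7, 22.4 and 20.3 M reads, and the 3 Veh_LPS libraries 25.5, 25.9 and 44.7 M. THC_LPS replicate 3 was also the library that stood apart on GC content and mitochondrial reads. How far this set the numbers of calls was not tested, so they do not compare the sizes of the 2 responses. Of the 152 rises after vehicle, 146 were tested after THC and 138 were positive there, with a median of 0.72. The median over all 16430 genes tested after THC was -0.008. The test of the difference between the 2 responses called 0 of 17208 genes by edgeR, with 1167 (6.78%) at an unadjusted p under 0.05, and it called 1 by DESeq2 and 6 by limma voom. Irf7 had a log2 fold change of 2.08 after THC, which did not pass alone (adjusted p = 0.17), and of 3.19 after vehicle, and the difference had an adjusted p of 0.71. Log2 fold changes lay close to each other in Lcn2, at 6.63 after THC and 6.94 after vehicle, in Gbp7, at 1.71 after THC and 1.78 after vehicle, and in Lyz2, at 1.23 after both. H2-K1 was at 0.48 after THC and 1.43 after vehicle, and C4b at 0.53 after THC and 1.54 after vehicle, each with an adjusted p of 0.71 for the difference.

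**Figure D5:**
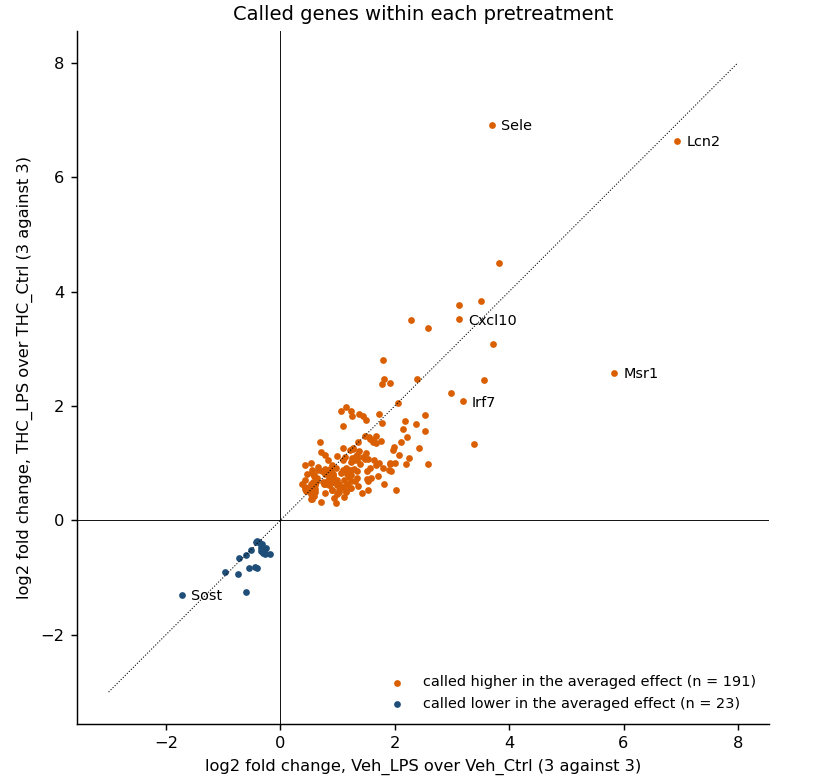
Each point is a gene called in the averaged effect and tested in both pretreatments, at its log2 fold change in Veh_LPS over Veh_Ctrl (x axis) and in THC_LPS over THC_Ctrl (y axis), with the dotted line at equal values. All 191 rises shown are positive on both axes and all 23 falls negative, and the value of Sele on the y axis rests on 0 reads in the 3 THC_Ctrl libraries and so has no fixed size.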

How the data were processed

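RNA was measured by sequencing in 12 brain libraries, 3 in each of 4 groups set by the labels. The authors deposited a table for each library with raw counts of reads for each gene, per the file headers. STAR 2.5, HTSeq, DESeq2 and the build mm10 are named, without roles, in the submitters' processing notes. The sources used here do not give the library kit, strandedness, annotation or handling of multi-mapped reads, so overlapping and antisense genes cannot be told apart.

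The tables were joined by gene identifier, with 0 reads for a gene that a table did not list (24274 genes in each THC table, 24562 in each vehicle table, 25556 joined). Library totals of 16.7 to 44.7 M reads limit the precision of genes under about 1 CPM. EdgeR 4.0.16 in R 4.3.3 fitted an LPS and a pretreatment term to all 12 libraries, with TMM scaling, its default expression filter over the 4 groups, robust quasi-likelihood dispersions, and p-values adjusted by Benjamini-Hochberg over 17208 genes. Calls are adjusted p-values under 0.05. The SE of a log2 fold change is its size divided by the square root of the quasi-likelihood F, an approximation and not a model output. CPM are on the reads of tested genes after TMM scaling. DESeq2 1.42.0 and limma 3.58.1 were alternatives, with other scaling, filters, models, GC and length trends (loess span 0.5) and left-out libraries. The procedure was tested on simulated counts that held no pretreatment effect, GC trend or outlying library, so that test does not cover these.

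Each of 39 lists (644 entries, 638 in the files) is described by its counts and median, without a test. The comparison, the lists and the alternatives were chosen with earlier results of these data known. Named genes are the 12 largest rises and falls with no overlap and a mean of at least 1 CPM in the higher set, up to 4 members of each list by smallest p, and Irf7, Lcn2, C4b, Il1b, Tnf, Il6, Ccl2, P2ry12, Tmem119, Cx3cr1, Aif1, Gfap, Cnr1, Cnr2, Fos, Cyr61 and Ddit4. Other genes are named from the lists by role, or, like the rest of the falls, Msr1, Igfbp7, Ctsc, Ctss, Cd93, Podxl, Slfn2, Trim30a, Myo1g, Icam1, Isg15, Pdia4, Hspa5 and Pmch, after their values were seen. Of the tested genes, 99.3% had a GC value. Libraries of a group differed beyond sampling noise (lowest ratio of chi-square to degrees of freedom 11.2). The normalized values and FPKM that stand beside the raw reads were not used here. Some named genes are not reported here.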

Additional observations from a re-analysis of the deposited data

Results flagged for a closer look

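Of 232 sets of 6 libraries examined, 12 held a library whose gap to the nearest other exceeded Dixon's critical value. Independent sets of normal values exceed it in about 1 in 20. The sets here shared libraries and each mixed both pretreatments, so their share cannot be read against that rate. Among LPS libraries, THC_LPS replicate 3 was highest for Cybb (3.08 CPM, next 2.14), Plac8 (1.66, next 0.872) and Pmch (5.67, next 2.45). Veh_LPS replicate 2 was highest for Msr1 (1.86 CPM, next 0.95) and for the summed pituitary markers (4360 CPM, next 177), Veh_LPS replicate 3 for Kctd7 (18.6, next 16.4) and Veh_LPS replicate 1 for Opalin (30.8, next 20.3). Among Ctrl libraries, Veh_Ctrl replicate 2 was highest for Aif1 (3.77 CPM, next 2.59) and Nell1 (79.1, next 70.1), Veh_Ctrl replicate 3 for Sele (0.125, next 0.0414) and THC_Ctrl replicate 3 for the summed border macrophage markers (39.4, next 33.8). THC_Ctrl replicate 2 was lowest for Pdia4 (24.4 CPM, next 29.4). The calls of Cybb, Plac8, Msr1, Sele and Kctd7 held without each library in turn, whereas Opalin and Nell1 were each called in 2 of the 12 fits that left out a library.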

How the results depend on the processing

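Counts of genes called higher and lower were 558 and 110 by DESeq2, 1302 and 1659 by limma voom, 340 and 27 with no expression filter, 192 and 7 with at least 1 CPM in 6 libraries, 536 and 195 with GC trends removed, and 655 and 329 with GC and length trends removed. Within the 6 THC libraries they were 1 and 1, and within the 6 vehicle libraries 152 and 1. Leaving out a library gave 129 to 550 higher and 2 to 263 lower. The labels share replicate numbers between groups, but same-numbered libraries did not deviate together (r from -0.156 to 0.101 over 18 pairs, 1 pair over 0.1, and 1 of 12 libraries nearest to its own number), and a fit with the number as a replicate block called 165 higher and 12 lower. Median-ratio scaling, the 4 group means and the fit without pretreatment kept both counts within 1.5 times (199 to 243 higher, 16 to 30 lower). DESeq2 and voom each called all 203 rises and 23 falls, and 199 and 19 were called with GC trends removed. The difference between pretreatments called 0 genes by edgeR, 1 by DESeq2, 6 by voom and 0 to 1 without a library.

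Of 95 named called genes, 68 were called in every fit that left out a library, 2 (Lcn2 and Saa3) under every alternative that gave a value, and 0 changed direction. Many were named for small p or lack of overlap in these libraries, so their share is not that of all calls. Leaving out a library kept from 128 (Veh_Ctrl replicate 2) to all 203 (Veh_LPS replicate 1) of the rises. It kept from 2 (Veh_LPS replicate 2) to all 23 (Veh_LPS replicate 1) of the falls. Lcn2 had a value in 25 alternatives, but Saa3, at low counts, in only 23. Directions turned only in genes not called over all 12 libraries. Within the THC libraries Cnr1 was at 0.195, P2ry12 at 0.01 and Tmem119 at -0.062, and within the vehicle libraries Cyr61 was at 0.534, Ddit4 at 0.078, Fos at 0.407 and Pmch at -0.359. Pmch was at -0.166 by voom, -0.104 with the replicate block, -0.112 and -0.074 without GC and without GC and length trends, and -0.277 without Veh_LPS replicate 2 and THC_LPS replicate 3. Without each library, Cnr1 ranged from -0.125 to 0.029 and Pmch from -0.379 to 0.204. The causes were not tested. Genes under about 1 CPM, such as Tnf and Il6, are limited by depth.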

Other observations

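Other rises are described by family here, and the families and genes were picked after their calls were seen. Schlafen genes, which restrict growth of immune cells and viral translation, rose in 4 of 5 tested members, with a median log2 fold change of 1.44. Slfn2 had 2.53, 3.77 and 5.57 CPM in the lowest, median and highest LPS library, against 0.787, 1.40 and 1.85 CPM in Ctrl, and rose by 1.44 (edgeR adjusted p = 0.0034). Cathepsins, the proteases of lysosomes, rose in 3 of 12 members, and their median was 0.01. Ctsc, which activates the serine proteases of leukocytes, had 13.9, 19.7 and 23.7 CPM in LPS and 7.69, 8.45 and 9.06 CPM in Ctrl, a log2 fold change of 1.22 with no overlap. Ctss, which trims the invariant chain of MHC class II, rose by 0.54, while Ctsb and Ctsd, its general relatives in most cells, were at -0.09 and -0.20 and did not pass. Trim30a of the interferon effector list, an interferon-induced regulator of Toll-like receptor signalling, had 4.02 to 10.6 CPM in LPS and 1.05 to 3.23 CPM in Ctrl, a log2 fold change of 1.77.

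Further genes outside the lists, of different cell types, were called higher. Igfbp7, a secreted protein of the vessel wall, had 29.2, 42.4 and 49.1 CPM in LPS and 14, 18.5 and 19.9 CPM in Ctrl, and rose by 1.19 on the log2 scale (edgeR adjusted p = 1.1e-04) with no overlap. Cd93, a receptor on endothelium and myeloid cells, rose by 1.03, and Podxl, a sialomucin of the luminal surface, by 0.51, with 51.4 to 72.4 CPM in LPS and 41.4 to 49.9 CPM in Ctrl. Msr1, a scavenger receptor of macrophages, had 0.476 to 1.86 CPM in LPS and at most 0.164 CPM in Ctrl, a log2 fold change of 3.68 from low counts. The unconventional myosin Myo1g of blood cells rose by 2.17, with 1.12 to 1.90 CPM in LPS and 0.207 to 0.445 CPM in Ctrl. In each of these genes every LPS library lay above every Ctrl library.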
